A study of Mus musculus with 9 samples.

Results

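The 38 genes described here are genes of spermatogenesis and meiosis, chosen by name for what they are known to do in the testis, with earlier results of these data known. All 38 were found among 23003 genes with a symbol. RNA sequencing was performed on 9 libraries of medullary thymic epithelial cells (mTEC) sorted from pooled thymi of 4-week-old B6 mice, as CD45-negative, Ly51-negative cells with high (mTEChi) or low (mTEClo) surface I-A/E, a class II molecule of the major histocompatibility complex. The libraries form 2 pairs and a time course, with 1 library in each group. In the first pair, mTEChi of Aire-deficient mice on the B6 background (Aire-KO) were set against WT mTEChi, and in the second pair (Exp2) mTEChi of WT mice were set against mTEClo of the same mice. The time course holds WT mTEChi at 0, 1.5, 3, 6 and 12 h of 1 µM actinomycin D, an inhibitor of transcription. TruSeq kits were used for its 0 h library and for the pairs, whereas RNA of treated cells was amplified with SMARTer and built into libraries with Nextera. In any comparison with 0 h, the effects of treatment and of the kit cannot be told apart. A pool of thymi gives no spread between mice, so differences within a pair have no replicate check.

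Medullary thymic epithelial cells transcribe many genes of other organs and show the products to developing T cells, a process in which the transcriptional regulator Aire takes part. Germ cell genes are of interest there because sperm and late germ cells first appear at puberty and sit behind the blood-testis barrier. In the testis, these genes act in sequence. Cohesin, axis and synaptonemal complex proteins hold paired chromosomes together in meiosis, recombination enzymes cut and join DNA, and the piRNA pathway silences transposons. After meiosis, spermatids replace histones with transition proteins and protamines and build the acrosome and the flagellum.

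Reads in RefSeq exons numbered 143001134 in the library labelled Aire-KO and 104316348 in WT mTEChi, and 195444567 in mTEChi and 74161592 in mTEClo of Exp2. In the time course the sum was 91610143 at 0 h and between 21124165 (1.5 h) and 1746825 (12 h) in treated cells. The targeted gene Aire had 87380 normalised counts in the library labelled Aire-KO and 29191 in WT mTEChi, so its exon counts do not show a loss, and the group is called by its label throughout. In Exp2, Aire had 52112 normalised counts in mTEChi and 1777 in mTEClo. A list of 10 genes of mature mTEChi summed to 26146 CPM (reads per gene scaled to the total of the library) in mTEChi and 8368 CPM in mTEClo, and a list of 6 genes of mTEClo to 1302 CPM in mTEChi and 8579 CPM in mTEClo. Normalised counts are reads divided by a size factor for each library, and every fold is a ratio of them unless CPM is named. All totals, and CPM with them, count a read in an exon shared by several entries once for each entry, so they are not numbers of distinct reads. Totals of the time course cover fewer entries than those of the pairs (25537 against 30794). This raises CPM in the time course relative to the pairs, by an amount that was not measured.

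The 38 genes were measured at low levels. Per length of the transcript, their mean over the 3 untreated WT mTEChi libraries (WT of the Aire pair, mTEChi of Exp2 and 0 h) had a median of 0.456 RPKM, that is CPM per kilobase, against 3.78 RPKM over all 19596 genes, and 35 of the 38 lay below that overall median. The 3 above it were Tnp2 (8.72 RPKM), Izumo1 (4.88 RPKM) and Tex14 (4.27 RPKM). Ldhc (2.66 RPKM), Prm1 (2.41 RPKM) and Rec8 (2.04 RPKM) came next, and Spem2 was the lowest at 0.0164 RPKM. The germ cell kinase-like protein gene Tex14 alone gave 30.8% of all reads of the 38 genes in the library labelled Aire-KO and 21.9% in WT mTEChi, and 26.1% in mTEChi against 3.53% in mTEClo. The 3 untreated WT mTEChi libraries did not give equal values. Their highest CPM exceeded the lowest 1.14-fold for Dmc1 and Tex101, 1.21-fold for Ldhc, 2.57-fold for Tex14, 7.21-fold for Prm1 and 12.5-fold for Spem1.

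**Figure D1:**
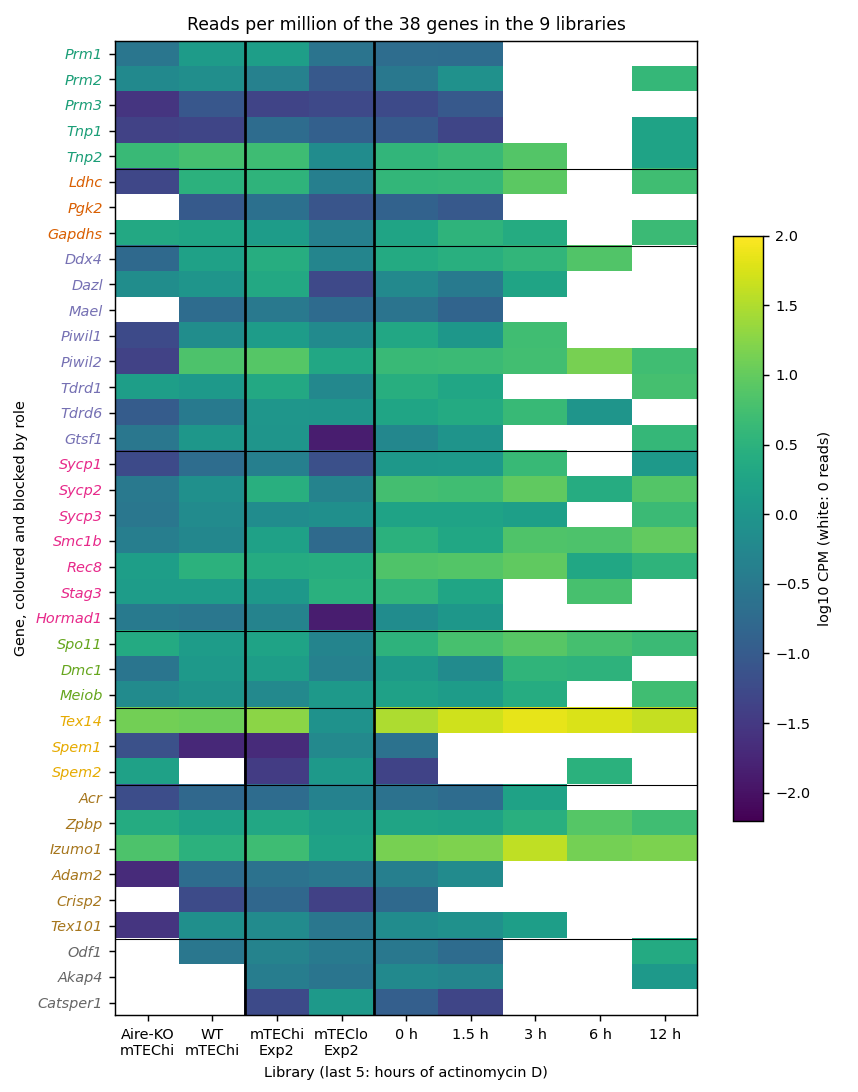
CPM on a log10 colour scale for the 38 genes (rows, coloured and blocked by role) in the 9 libraries (columns), with white for 0 reads. Tex14 has the highest CPM in every mTEChi library, and 17, 25 and 18 of the 38 genes are white at 3, 6 and 12 h of actinomycin D.

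Promoter windows from RefSeq (build GRCm38.p6, 250 bases before to 50 after the start) were found for 30 of the 38 genes, and 4 motifs were searched on both strands. The E2F element GGCGGGAA, known for factors of the E2F family that act in cell cycle and germ line genes, was present in Tex14, Hormad1 and Ddx4, 3 of the 30 windows, against 2.24% of 27025 windows of all genes. The full cAMP response element TGACGTCA, which CREM uses in spermatids, was present in Izumo1 alone (3.33% against 1.88%). Its short form TGACG, which lies within the full one, was present in 16.7% of the windows, against 21.0% of those of all genes, and TATAAA in Prm2 and Crisp2 (6.67% against 14.2%). The stretches below show the E2F element of the 3 genes that carry it and the full cAMP response element of Izumo1, with the motif in capitals, 5′ to 3′ on the strand of the gene. In Tex14 the element is the reverse complement. Rad51c starts 111 bases from Tex14 on the other strand (mm9), and which of these genes the element belongs to was not tested.
Tex14, chr11:87404942-87404971, plus strand: accccttgcttTTCCCGCCctcgcggggga
Hormad1, chr3:95559570-95559599, plus strand: gcgcagcttttGGCGGGAAtagtggtctgg
Ddx4, chr13:112652429-112652458, minus strand: tccgtccatggGGCGGGAAgtcgcgcgccg
Izumo1, chr7:45621704-45621733, plus strand: ctgccaccctaTGACGTCAcgatgggatgg
The first base of the motif lies at -112 in Tex14, -96 in Hormad1, -137 in Ddx4 and -96 in Izumo1, counted from the start.

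The windows differed by role in their content of the dinucleotide CpG. The ratio of observed to expected CpG had a median of 0.533 over the 30 genes and 0.389 over all windows. It was 0.756 for the 6 genes of RNA binding and the piRNA pathway and 0.716 for the 7 genes of the axis, synaptonemal complex and cohesin. For the 5 genes of nuclear compaction it was 0.164, and Spem1 and Spem2 had 0.0891 and 0.128. The highest value was that of Smc1b (1.08), and Akap4 had no CpG in its window.

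A gene was called when its fold was at least 3 and its normalised counts in the pair added up to 10 or more, the size of fold that the study used for Aire-sensitive genes. Between Aire-KO and WT mTEChi, the question was which germ cell genes depend on Aire. Of the 38 genes, 35 had enough reads, and Crisp2, Akap4 and Catsper1 did not. At least 3-fold lower values in the library labelled Aire-KO were found for 13 of 35 genes (37.1%), against 22.8% of all 19764 genes tested and 33.3% of the genes within the same range of CPM. At least 3-fold higher values were found for 2 of 35 genes, Spem1 and Spem2, against 2.20% of all genes and 2.87% of those within the same range. The share of lower genes was thus near that of genes within the same range of CPM, which were not matched in level. A further 14 of the 35 genes lay within 2-fold. The median fold of the 35 genes was 0.508, against 0.960 for all genes.

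**Figure D2:**
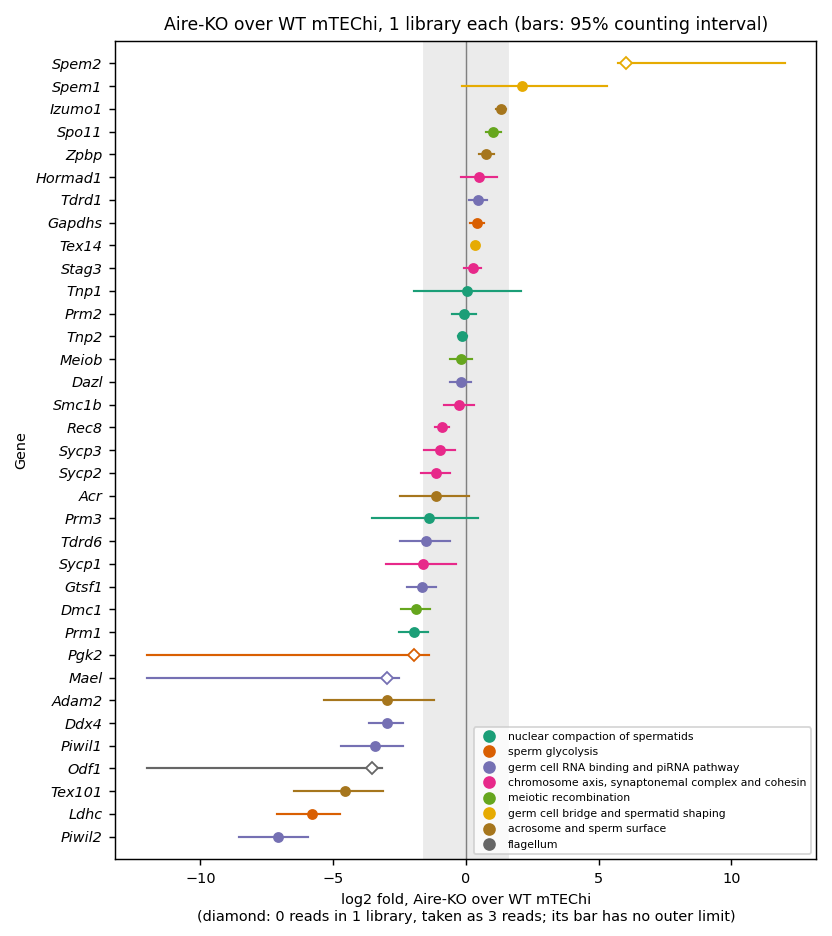
The log2 fold of Aire-KO over WT mTEChi for the 35 genes tested, ordered by fold and coloured by role, with exact 95% counting intervals as bars, diamonds where a library had 0 reads (taken as 3 reads) and the range within 3-fold in grey. Piwil2 and Ldhc lie at the lower end, Spem2 at the upper end, and Tex14, Tnp2, Prm2, Dazl and Smc1b near 0.

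The 2 lowest folds were those of Piwil2 and Ldhc. Piwil2, a Piwi protein that makes and uses piRNAs in spermatogonia and spermatocytes, had 5.55 normalised counts in the library labelled Aire-KO and 750 in WT mTEChi. These values rest on 6 reads in the library labelled Aire-KO and 694 in WT mTEChi and give a fold of 0.00739 (95% counting interval 0.00270 to 0.0162). Ldhc, the lactate dehydrogenase of spermatocytes and sperm, had 6.47 normalised counts in the library labelled Aire-KO and 359 in WT mTEChi (fold 0.0180, 0.00719 to 0.0376). Its neighbour Ldha, the lactate dehydrogenase of most tissues, 5576 bases to the left on chromosome 7 (mm9), had 59914 normalised counts in the library labelled Aire-KO and 43488 in WT mTEChi, a fold of 1.38.

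A further 6 genes reached 50 normalised counts in WT mTEChi. Ddx4, the germ cell RNA helicase Vasa, had 23.1 normalised counts in the library labelled Aire-KO and 182 in WT mTEChi (fold 0.127). Tex101, a surface protein of germ cells needed for sperm to pass the oviduct, had 3.70 in the library labelled Aire-KO and 86.5 in WT mTEChi (fold 0.0428), and Piwil1, the Piwi protein of pachytene spermatocytes, 7.40 in the library labelled Aire-KO and 80.0 in WT mTEChi (fold 0.0925). Dmc1, the meiotic strand exchange recombinase, had 36.1 in the library labelled Aire-KO and 134 in WT mTEChi (fold 0.269), and Gtsf1, a piRNA factor, 37.9 in the library labelled Aire-KO and 119 in WT mTEChi (fold 0.319). Prm1, the protamine shared by mammals, had 37.0 in the library labelled Aire-KO and 144 in WT mTEChi (fold 0.257). Each of these folds had a counting interval below 1.

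The remaining 5 lower genes had few reads. The library labelled Aire-KO had 0 reads for Mael, Pgk2 and Odf1, against 20, 10 and 30 reads in WT mTEChi. Taken against 3 reads, they were 7.79-fold, 3.90-fold and 11.7-fold lower, with 95% counting limits of at least 5.77-fold, 2.62-fold and 8.94-fold lower. Mael is a piRNA factor, Pgk2 the phosphoglycerate kinase of sperm and Odf1 a protein of the outer dense fibres of the flagellum. Sycp1, the transverse filament of the synaptonemal complex, had 8 reads in the library labelled Aire-KO and 21 in WT mTEChi (fold 0.326), and Adam2, a sperm surface protein of fertilization, had 3 in the library labelled Aire-KO and 20 in WT mTEChi (fold 0.128).

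A second set of genes lay within 2-fold. Tex14, which keeps the intercellular bridges of germ cells open, had 1682 normalised counts in the library labelled Aire-KO and 1336 in WT mTEChi (fold 1.26, 1.17 to 1.35). Tnp2, a transition protein, had 585 in the library labelled Aire-KO and 640 in WT mTEChi (fold 0.913, 0.815 to 1.02). The RNA-binding protein gene Dazl had 97.1 in the library labelled Aire-KO and 111 in WT mTEChi (fold 0.872), the meiotic cohesin subunit gene Smc1b 51.8 in the library labelled Aire-KO and 61.6 in WT mTEChi (fold 0.840), and Prm2 81.4 in the library labelled Aire-KO and 85.4 in WT mTEChi (fold 0.953). Tdrd1, a scaffold of the piRNA pathway, had 186 in the library labelled Aire-KO and 135 in WT mTEChi (fold 1.38), Gapdhs, the glyceraldehyde phosphate dehydrogenase of sperm, 283 in the library labelled Aire-KO and 211 in WT mTEChi (fold 1.34), and Hormad1, a protein of the chromosome axis, 45.3 in the library labelled Aire-KO and 32.4 in WT mTEChi (fold 1.40). Stag3 and Rec8, further meiotic cohesin subunits, had folds of 1.19 and 0.540, and Meiob, a single-strand DNA binding protein of recombination, 0.883. Several of these values depended on the WT library. In CPM, Tnp2, Tdrd1 and Gapdhs lay within 2-fold of each untreated WT mTEChi library. The CPM of Smc1b in the library labelled Aire-KO was 0.241 times that of Exp2 and 0.127 times that of 0 h, and the CPM of Dazl was 0.343 times that of Exp2. Against 0 h, Tex14 was 0.417, Hormad1 0.490 and Prm2 2.01 times the WT value.

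Other genes had higher values in the library labelled Aire-KO without reaching 3-fold. Izumo1, the sperm protein that binds Juno on the egg, had 880 normalised counts in the library labelled Aire-KO and 354 in WT mTEChi (fold 2.49, 2.19 to 2.83). Spo11, which makes the double-strand breaks of meiosis, had 305 in the library labelled Aire-KO and 149 in WT mTEChi (fold 2.05), and Zpbp, an acrosomal protein, 314 in the library labelled Aire-KO and 185 in WT mTEChi (fold 1.70). Against 0 h the direction turned for Izumo1 and Spo11, whose CPM in the library labelled Aire-KO was 0.483 and 0.702 times that of 0 h, against 1.35 and 1.32 times that of Exp2. In the mm9 annotation, exons of Izumo1 share 21.9% of their bases with Rasip1 on the same strand. Those of Zpbp share 5.25% with 4930415F15Rik on the opposite strand, and counting did not use strand. The shares are of all annotated exon bases, not of the counted RefSeq entries, so reads of these genes are uncertain. The same holds for Sycp3, a protein of the axis, which shares 52.2% of its exon bases with Chpt1 on the opposite strand and had a fold of 0.508. The folds of Sycp2 (0.458), Tdrd6 (0.356), Prm3 (0.380) and Acr (0.453) lay between 2-fold and 3-fold lower, Prm3 and Acr on fewer than 20 reads in either library, and Tnp1 had 6 reads in the library labelled Aire-KO and 5 in WT mTEChi.

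Spem2 had the highest fold of all 19764 genes tested. There were 229 reads of it in the library labelled Aire-KO and 0 in WT mTEChi, which is 65.3-fold against 3 reads, with a counting limit of at least 52.7-fold higher. In the other untreated WT mTEChi libraries it had 7 reads in Exp2 and 4 at 0 h. Spem1, known for shaping the sperm head and removing cytoplasm in spermatids, had 10 reads in the library labelled Aire-KO and 2 in WT mTEChi (fold 4.28, 0.911 to 40.1). Its 22 reads at 0 h turn the direction, since the CPM of the library labelled Aire-KO was 0.291 times that of 0 h. Only for Spem2 was the higher value found against each of the 3 untreated WT mTEChi libraries, in CPM.

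The folds in CPM against each of the 3 untreated WT mTEChi libraries could be taken for 34 of the genes, with the limit on CPM at 0 h given above. At least 3-fold lower values in the library labelled Aire-KO against each of them were found for 12 genes, Ldhc, Pgk2, Ddx4, Mael, Piwil1, Piwil2, Tdrd6, Sycp1, Dmc1, Adam2, Tex101 and Odf1, or 35.3% against 19.4% of all genes. At least 3-fold higher values were found for Spem2, against 0.108% of all genes. Shares for genes within the same range of CPM were not taken for these counts or for the edgeR counts below. Within the Aire pair, 33.3% of such genes were lower, against 22.8% of all genes. Prm1, which was 0.219 and 0.197 times the WT libraries of the pairs, was 1.42 times the 0 h library, so its lower value did not hold against every library. With the 3 WT libraries taken as replicates in edgeR's quasi-likelihood test, 7 of the 38 genes were lower at an adjusted p under 0.05 and 1 was higher, against 8.64% lower and 0.0878% higher among 23916 entries. The 7 lower genes were Ldhc (log2 fold -5.84, SE 0.77, adjusted p = 0.00958), Piwil2 (-6.94, SE 0.92, adjusted p = 0.00967), Ddx4 (-3.37), Tex101 (-4.35), Odf1, Piwil1 (-4.28) and Mael, the last 5 at an adjusted p between 0.0313 and 0.0498, and the higher one was Spem2 (log2 fold 6.12, SE 0.95, adjusted p = 0.0125). The spread of the lone library labelled Aire-KO was assumed to be that of the WT libraries, which come from separate experiments. Leaving out mTEChi of Exp2 lowered the count of lower genes to 3, and it was 6 without 0 h and 10 without WT of the pair, while Spem2 passed in each case.

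Other genes of the same pathways were counted in 3 lists, beside the same background of 22.8% lower and 2.20% higher. Of 30 further meiosis genes tested, 10 were at least 3-fold lower in the library labelled Aire-KO and 0 higher. Of 23 germ cell and piRNA genes, 10 were lower and 2 higher, and of 51 spermatid and sperm genes 24 were lower and 1 higher. Asz1, a piRNA factor of the mitochondrial surface, had 0 normalised counts in the library labelled Aire-KO and 161 in WT mTEChi, and Sohlh1, a transcription factor of spermatogonia, had 1.85 in the library labelled Aire-KO and 218 in WT mTEChi. Mei1, needed for meiotic double-strand breaks, had 1.85 in the library labelled Aire-KO and 197 in WT mTEChi, and the mitochondrial protein gene Spata18 had 0.925 in the library labelled Aire-KO and 230 in WT mTEChi. Higher values were seen for Zbtb16, the factor PLZF of spermatogonia and of some lymphocytes, with 1364 normalised counts in the library labelled Aire-KO and 194 in WT mTEChi, and for Tdrd5 with 101 in the library labelled Aire-KO and 16.2 in WT mTEChi. The most expressed genes of these lists varied less, with folds of 0.967 for Hspa2, 1.28 for Ythdc2, 1.63 for Mlh3, 0.568 for Tdrd7 and 1.05 for Odf2, while Dppa3, expressed in the early germ line, had 833 in the library labelled Aire-KO and 6603 in WT mTEChi (fold 0.126).

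Markers of other cells also differed between these libraries. A list of 6 cell cycle genes summed to 214 CPM in the library labelled Aire-KO and 115 CPM in WT mTEChi, all 6 being above 1-fold and 1 past 3-fold. The 5 tuft cell genes summed to 139 CPM in the library labelled Aire-KO and 636 CPM in WT mTEChi, with 4 at least 3-fold lower, and the 7 dendritic cell and macrophage genes to 351 CPM in the library labelled Aire-KO and 641 CPM in WT mTEChi, with 4 lower. None of these markers was at 0 in either library. Their part in the folds of the germ cell genes was not tested, and fewer cells of a type and less RNA per cell cannot be told apart in bulk samples. The 6 genes of somatic testis cells summed to 98.2 CPM in the library labelled Aire-KO and 108 CPM in WT mTEChi. Of these 6, 2 were at least 3-fold lower in the library labelled Aire-KO, 0 were higher and 3 lay within 2-fold.

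Between mTEChi and mTEClo, the question was whether germ cell genes rise with mTEC maturation. All 38 genes were tested. At least 3-fold higher values in mTEChi were found for 16 genes (42.1%), against 12.4% of all 21849 genes tested and 15.2% of those within the same range of CPM. At least 3-fold lower values in mTEChi were found for 3 genes, Spem1, Spem2 and Catsper1, against 13.9% of all genes. The median fold of the 38 genes was 2.71, and that of all genes was 1.00. The genes with higher values belonged to 7 of the 8 roles, and flagellar genes were the exception.

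The 3 highest folds were those of Gtsf1, Dazl and Hormad1. Gtsf1 had 116 normalised counts in mTEChi and 1.66 in mTEClo, resting on 193 reads and 1 read (fold 69.7, 12.4 to 2767). Dazl had 251 in mTEChi and 6.66 in mTEClo (fold 37.7, 14.6 to 139). Hormad1 had 55.9 in mTEChi and 1.66 in mTEClo, from 93 reads and 1 read (fold 33.6, 5.88 to 1341). With a single read in mTEClo for Gtsf1 and Hormad1 and 4 reads for Dazl, the sizes of these folds are known only within their intervals. The rank of these 3 genes relative to Tex14 is not settled. Tex14 had 2192 normalised counts in mTEChi and 108 in mTEClo, a fold of 20.3 with the narrow interval of 15.9 to 26.3. Rad51c, which starts 111 bases from Tex14 on the other strand of chromosome 11 (mm9) and was singled out after its values were seen, had 325 in mTEChi and 326 in mTEClo (fold 0.997).

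The other genes with higher values had folds between 3.33 and 8.83. Smc1b had 191 normalised counts in mTEChi and 21.6 in mTEClo (fold 8.83), and Ldhc 403 in mTEChi and 49.9 in mTEClo (fold 8.07). Sycp2, a protein of the axis, had 325 in mTEChi and 59.9 in mTEClo (fold 5.43), and Sycp1 48.1 in mTEChi and 8.32 in mTEClo (fold 5.78). Among the genes of nuclear compaction, Tnp2 had 587 in mTEChi and 84.9 in mTEClo (fold 6.92), Prm1 166 in mTEChi and 31.6 in mTEClo (fold 5.27), and Prm2 52.3 in mTEChi and 11.6 in mTEClo (fold 4.49). The direction turned for Prm1 with the 0 h library in place of mTEChi of Exp2, at 0.767 times the CPM of mTEClo. In the piRNA pathway, Piwil2 had 912 in mTEChi and 261 in mTEClo (fold 3.49), Ddx4 312 in mTEChi and 63.2 in mTEClo (fold 4.94), and Tdrd1 253 in mTEChi and 71.6 in mTEClo (fold 3.54). Spo11 had 205 in mTEChi and 61.6 in mTEClo (fold 3.33), and Crisp2, a secreted sperm protein, had 31 reads in mTEChi and 3 in mTEClo (fold 3.73, 1.16 to 19.08).

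A further 7 genes had folds between 2-fold and 3-fold in either direction. Gapdhs (2.91), Dmc1 (2.90), Izumo1 (2.78), Pgk2 (2.65) and Tex101 (2.15) were higher in mTEChi, and Stag3 (0.368) and Acr, the acrosomal protease acrosin (0.404), were lower. The 12 others lay within 2-fold. Rec8 had 281 normalised counts in mTEChi and 319 in mTEClo (fold 0.880), and Meiob 71.5 in mTEChi and 141 in mTEClo (fold 0.506). Zpbp had 246 in mTEChi and 175 in mTEClo (fold 1.41), Odf1 55.3 in mTEChi and 41.6 in mTEClo (fold 1.33), Akap4, an anchor of protein kinase A in the fibrous sheath, 44.5 in mTEChi and 33.3 in mTEClo (fold 1.34), Piwil1 156 in mTEChi and 78.2 in mTEClo (fold 2.00), Mael 37.3 in mTEChi and 23.3 in mTEClo (fold 1.60), and Tdrd6 117 in mTEChi and 120 in mTEClo (fold 0.978). Adam2 had 28.8 in mTEChi and 36.6 in mTEClo (fold 0.788), and the folds of Tnp1, Prm3 and Sycp3 were 1.48, 0.813 and 0.849.

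The 3 genes lower in mTEChi had counting intervals wholly past 3-fold. Spem2 had 7 reads in mTEChi and 86 in mTEClo, and was 34.0-fold lower in normalised counts. Spem1 had 4 reads in mTEChi and 45 in mTEClo and was 31.2-fold lower, and Catsper1, a subunit of the sperm calcium channel, had 11 in mTEChi and 85 in mTEClo and was 21.4-fold lower. Spem2 was thus lower in mTEChi than in mTEClo and higher in the library labelled Aire-KO than in WT mTEChi. Spem1 had the same directions in these pairs, but in the Aire pair on 10 and 2 reads, with an interval that included 1.

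Spem1 and Spem2 are neighbours. On chromosome 11 (mm9), Spem2 (69630068 to 69631967, annotated as 4933402P03Rik) and Spem1 (69634378 to 69635682) lie 2411 bases apart on the minus strand. The gene 942 bases before Spem1 on the same strand is Nlgn2 (69636624 to 69651286), which codes for a neuronal adhesion protein. Nlgn2 had 280 normalised counts in mTEChi and 4138 in mTEClo (14.8-fold lower), and 695 in the library labelled Aire-KO and 364 in WT mTEChi (fold 1.91). On the far side of Spem2, 10942 bases away, Tmem102 had 1558 in mTEChi and 2162 in mTEClo (fold 0.721), and its fold of Aire-KO over WT was 0.877. Thus Nlgn2 differed in the same direction as Spem2 in both pairs. The neighbours of Catsper1, Gal3st3 and Cst6, had folds of mTEChi over mTEClo of 3.32 and 1.13. Gal3st3 was thus higher in mTEChi, opposite to Catsper1, and Cst6 lay within 2-fold.

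A second cluster holds 4 of the 5 nuclear compaction genes. Tnp2, Prm3, Prm2 and Prm1 lie in this order on the minus strand of chromosome 16 (mm9, 10788029 to 10796979), with 1852, 470 and 4221 bases between them. Their folds differed. The fold of Aire-KO over WT was 0.913 for Tnp2, 0.380 for Prm3 (4 reads in the library labelled Aire-KO and 9 in WT mTEChi), 0.953 for Prm2 (0.695 to 1.31) and 0.257 for Prm1 (0.176 to 0.369), and the intervals of Prm2 and Prm1 did not overlap. The fold of mTEChi over mTEClo was 6.92, 0.813, 4.49 and 5.27 in the same order of genes. The intervals cover counting error only. Against 0 h, CPM in the library labelled Aire-KO was higher for both Prm1 (1.42 times) and Prm2 (2.01 times). The next gene beyond Tnp2, Socs1, 2400 bases away, had folds of 1.41 and 1.26 in the Aire pair and the Exp2 pair.

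Read across both pairs, the genes fell into several patterns. Of the 16 genes higher in mTEChi, 6 were at least 3-fold lower in the library labelled Aire-KO (Prm1, Ldhc, Ddx4, Piwil2, Gtsf1 and Sycp1) and 7 lay within 2-fold (Tex14, Dazl, Smc1b, Hormad1, Tnp2, Prm2 and Tdrd1). These patterns hold for the paired WT library. Against the other untreated WT mTEChi libraries, of the first set Prm1 and Gtsf1 were 1.42 and 0.515 times 0 h, and of the second set Tnp2 and Tdrd1 alone stayed within 2-fold of each library. The pairs share no library. How often all genes show either pattern was not counted. In the Aire pair alone, 33.3% of the genes within the same range of CPM were lower, and 6324 of 12285 lay within 2-fold. No difference of 6 and 7 of 16 from this background was shown. The E2F element printed above lies in the windows of Tex14 and Hormad1, of the second pattern, and of Ddx4, of the first. The median CpG ratio was 0.531 over the 5 genes of the first pattern with a promoter window and 0.713 over the 7 of the second. The ranges, 0.0487 to 0.978 and 0.137 to 1.08, overlapped over most of their extent.

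**Figure D3:**
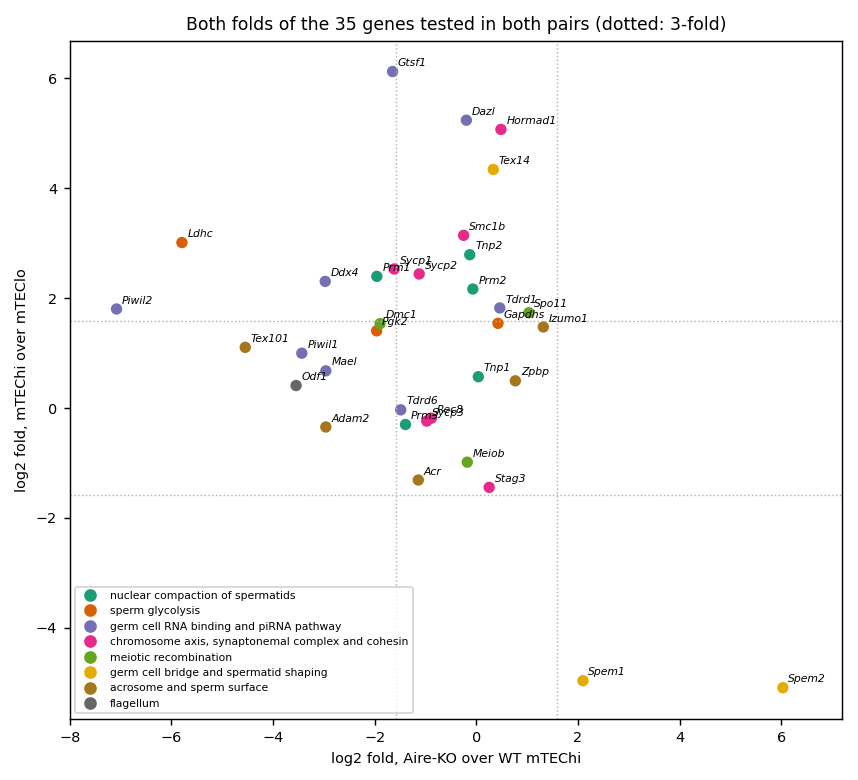
The log2 fold of Aire-KO over WT mTEChi (horizontal axis) against that of mTEChi over mTEClo (vertical axis) for the 35 genes tested in both pairs, coloured by role, with dotted lines at 3-fold. Gtsf1, Dazl, Hormad1 and Tex14 lie highest, Piwil2 and Ldhc farthest to the left, and Spem1 and Spem2 alone at the lower right.

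The comparison was repeated with each untreated WT mTEChi library. At least 3-fold higher CPM in each of the 3 WT mTEChi libraries than in mTEClo was found for 10 of 36 genes (Prm2, Tnp2, Ldhc, Gapdhs, Ddx4, Dazl, Gtsf1, Smc1b, Hormad1 and Tex14), against 8.43% of all genes. At least 3-fold lower CPM was found for Spem2 and Catsper1, against 6.86% of all genes. In edgeR's quasi-likelihood test of the 3 WT mTEChi libraries against mTEClo, Tex14 was higher (log2 fold 4.36, SE 0.77, adjusted p = 0.0371) and Spem2 lower (log2 fold -5.52, SE 1.11, adjusted p = 0.0440), of 37 genes tested. The spread of the lone mTEClo library was assumed to be that of the WT libraries, of which only mTEChi of Exp2 came from the same mice. Over all 24687 entries, 1.92% were higher and 1.45% lower. Both calls were lost without mTEChi of Exp2 (edgeR adjusted p = 0.0619 for Tex14 and 0.0680 for Spem2, the highest over 5 alternatives, the lowest being 1.44e-08 and 0.000686), a fit in which no entry at all was called and 3473 had an unadjusted p under 0.05.

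The further lists were counted in the same way, beside 12.4% higher and 13.9% lower among all genes. Of 32 other meiosis genes, 8 were at least 3-fold higher in mTEChi (25.0%) and 1 lower, and of 23 germ cell and piRNA genes 7 were higher (30.4%) and 0 lower. Of 60 spermatid and sperm genes, 9 were higher (15.0%, near the share of all genes) and 12 lower (20.0%). Stra8, needed to enter meiosis, had 1378 normalised counts in mTEChi and 115 in mTEClo (fold 12.0), and Tex11, a factor of meiotic crossing over, 508 in mTEChi and 21.6 in mTEClo (fold 23.5). Crisp1, a secreted protein of the epididymis, had 1155 in mTEChi and 25.0 in mTEClo (fold 46.3). Lower in mTEChi were Actl9 with 11.4 normalised counts in mTEChi and 160 in mTEClo, and Actl7b and Spata16, each with 12.6 in mTEChi and 81.5 in mTEClo. The 6 cell cycle genes summed to 344 CPM in mTEChi and 88.5 CPM in mTEClo, with 5 at least 3-fold higher, and their part in the values of meiosis genes was not tested. The 7 dendritic cell and macrophage genes summed to 533 CPM in mTEChi and 76.2 CPM in mTEClo, and the 5 fibroblast genes to 81.1 CPM in mTEChi and 789 CPM in mTEClo. The 6 genes of somatic testis cells summed to 113 CPM in mTEChi and 155 CPM in mTEClo, with 3 at least 3-fold higher in mTEChi and 0 lower. None of these markers was at 0 in either library, and their part was not tested.

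Actinomycin D was used to follow how transcripts persist once transcription stops. The 38 genes became harder to detect in the treated libraries. The number with 0 reads was 0, 3, 17, 25 and 18 at 0, 1.5, 3, 6 and 12 h, that is 0, 7.89, 44.7, 65.8 and 47.4%, against 3.40, 6.36, 20.0, 33.6 and 29.0% of all genes. Among 13159 genes within the same range of reads at 0 h, 0, 2.57, 20.8, 40.8 and 34.2% had 0 reads at these times. That range ran from 4 to 2794 reads, whereas the 38 genes had a median of 105.5, so the comparison genes were not matched in level. Scaled from 0 h by depth, 33, 31, 28 and 17 of the 38 genes would have 3 or more reads at 1.5, 3, 6 and 12 h. Of these, 2, 10, 16 and 4 had 0 reads. Depth fell over the same libraries, to 13953047 reads at 3 h and 11295960 at 6 h besides the totals above, and time, kit and depth cannot be told apart in these counts. The sum over the 38 genes did not fall, at 103, 125, 201, 129 and 134 CPM. Tex14 alone gave 29.7, 39.8, 35.2, 44.2 and 31.6% of these reads. CPM is a share of the reads of a library, so a steady or rising CPM does not show that transcripts persisted.

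At 3 and 6 h, none of the 38 genes had between 1 and 9 reads, whereas 9 had at 1.5 h and 15 at 12 h. At 3 h the lowest value above 0 among the 38 genes was 20 reads and at 6 h it was 11 reads, against 1 read at 1.5 h and 2 reads at 12 h. Over all entries, 4.77, 9.05, 2.02, 0.713 and 15.9% had between 1 and 9 reads at 0, 1.5, 3, 6 and 12 h, while 2.71, 5.18, 17.9, 31.5 and 26.9% had 0 reads. A gene at 0 reads at 3 or 6 h could have reads at the next time. Prm2 had 0.306, 0.852, 0, 0 and 4.01 CPM at 0, 1.5, 3, 6 and 12 h, and Tdrd1 had 2.73, 1.94, 0, 0 and 5.72 CPM. Their values at 12 h rest on 7 and 10 reads, since 1 read is worth 0.572 CPM there. Stag3 had 3.67, 1.85, 0, 6.02 and 0 CPM, with 68 reads at 6 h. Spem2, at 4 reads at 0 h and 0 at 1.5 and 3 h, had 34 reads at 6 h.

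In 8 of the 38 genes reads were present in all treated libraries, and in 2, Spem1 and Crisp2, in none of them. Tex14 had 30.5, 49.7, 70.8, 57.1 and 42.4 CPM at 0, 1.5, 3, 6 and 12 h, the highest value of the 38 genes at each time. Izumo1 had 13.8, 15.6, 39.7, 13.0 and 14.9 CPM. Rec8 had 7.07, 7.43, 9.39, 2.04 and 3.43 CPM, and Sycp2 had 5.49, 5.07, 9.39, 2.48 and 7.44 CPM. These 3 genes had their highest value at 3 h and their lowest at 6 h. Spo11 had 3.29, 6.11, 8.03, 5.75 and 4.58 CPM, and Smc1b 3.09, 2.04, 7.02, 6.82 and 9.73 CPM. Piwil2 had 4.49, 4.59, 5.30, 13.6 and 5.15 CPM, and Zpbp 1.77, 1.66, 2.87, 7.88 and 5.15 CPM. At 12 h these 8 genes had between 6 reads for Rec8 and 74 for Tex14, so counting error alone is large there.

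**Figure D4:**
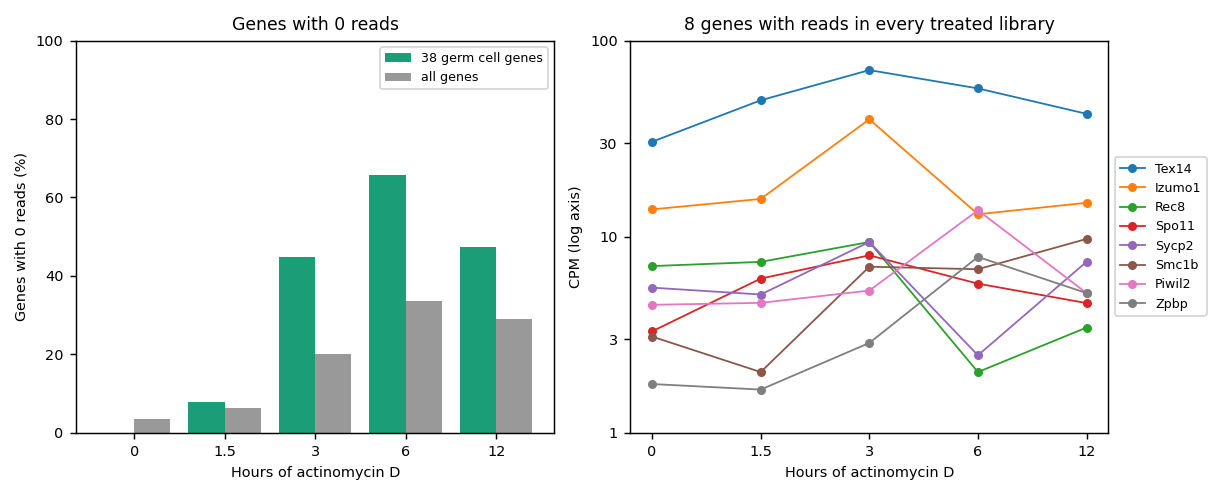
Left, the percentage of genes with 0 reads at each time of actinomycin D for the 38 germ cell genes (green) and all genes (grey). Right, CPM on a log axis of the 8 genes with reads in every treated library, where Tex14 lies above the others at each time, at 30.5 to 70.8 CPM.

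No slope over time was called for the 38 genes. In edgeR's quasi-likelihood test on the 4 treated libraries, 23 of the 38 genes passed the expression filter, none had an adjusted p under 0.05 and none an unadjusted p under 0.05, against 0% of 20558 entries called and 1884 with an unadjusted p under 0.05. DESeq2 called 250 rising and 143 falling slopes among 4958 entries with an adjusted p, but only 1 of the 38 genes had one, so its count of 0 for them carries no weight. The median log2 change of the 37 genes with at least 10 reads over the 5 libraries was -0.07 at 12 h over 1.5 h, both treated and made with the same kit, against -0.42 for all genes. Over 0 h the median was -0.09, 0.41, -3.85 and -1.04 at 1.5, 3, 6 and 12 h, against -0.14, -0.21, -0.57 and -0.61 for all genes. The value at 12 h over 0 h turned to 0.20 when 50 reads were asked for, which left 27 genes, and the one at 6 h reflects the 25 genes without reads.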

How the data were processed

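Per the labels and methods, the authors filtered reads with CASAVA, aligned them to mm9 with Bowtie 1.0.0 and counted those within RefSeq exons with bedtools, without strand. The authors deposited the pairs as a signal, reads per entry scaled by DESeq size factors (normalised counts), and whole reads were recovered from them (100% of values whole within 0.1). For actinomycin D, the deposited values are raw counts. The deposited fold changes and p-values of the authors were not used. Column names in the Aire table do not name samples, so Aire-KO and WT were told apart by how the study's code forms its fold.

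The genes and lists were chosen with earlier results of these data known. For each symbol, the RefSeq entry with the highest mean over both libraries was used. Text values follow a rule of up to 4 genes a role by level plus genes at least 3-fold changed with at least 50 normalised counts. Of other lists, the 3 highest and the 3 largest folds per direction qualified. A fold against 0 reads was taken against 3 reads. Intervals are exact 95% intervals from reads and cover counting error only, as PCR copies are not independent. Changes over time added 0.5 reads before the log2. Fits across all entries used edgeR 4.0.16 and DESeq2 1.42.0 in R 4.3.3 with Benjamini-Hochberg adjustment at 0.05. Only the edgeR fit was tested on simulated data. Python 3.11.15 (pandas 2.3.3, numpy 2.4.6, scipy 1.17.1, with matplotlib 3.10.9 for plots) did the rest. Promoter sequences and symbols are from RefSeq (GRCm38.p6), and positions of genes from gencode vM1 (mm9). Alternatives were scaling, filters, fold limits, entries, tools and left-out libraries.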

Additional observations from a re-analysis of the deposited data

How the results depend on the processing

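The counts at 3-fold in the Aire pair (13 lower, 2 higher) moved to 8 lower and 1 higher with at least 50 normalised counts, to 7 lower and 1 higher where the counting interval had to lie wholly past 3-fold, and to 4 higher at a limit of 2-fold. With another untreated WT mTEChi library in place of the paired one, an alternative chosen after seeing the data, 20 (Exp2) and 21 (0 h) of 37 genes were lower, beside 25.4 and 29.4% of all genes, and, with 0 h, 1 was higher, beside 4.27%. Scaling by total reads moved the median of all genes in the Aire pair by -0.23 (log2). In Exp2 (16 higher, 3 lower), 10 genes were higher with the interval wholly past 3-fold and 5 lower at 2-fold. In the fits, 3 to 10 genes were lower in Aire-KO without a WT library, and DESeq2 called 9. Against mTEClo, DESeq2 called 6 genes higher and 2 lower, and leave-one-out fits gave 0 to 5 higher and 0 to 2 lower. No slope of the 38 genes was called under any alternative, with 17 to 36 of them tested by edgeR and 1 by DESeq2, while over all entries 82 rising and 496 falling slopes were called without 12 h, 706 and 1154 without 6 h, and 250 and 143 by DESeq2. The median change at 12 h over 1.5 h (-0.07) became -3.16 with 6 h in place of 12 h. At 1.5 h over 0 h (-0.09) it turned to 0.026 with TMM factors and 0.071 with at least 50 reads, and at 3 h (0.41) it became 0.69 with at least 50 reads. At 6 h (-3.85) it was -2.12 with 2 reads added and -4.60 with at least 50 reads. At 12 h (-1.04) it was -0.84 with TMM factors, -0.69 with 2 reads added and 0.20 with at least 50 reads. The cause was not tested. No paired analysis was possible because each group holds 1 library.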
